A study of Mus musculus with 81 samples.

Results

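Bone marrow neutrophils of the inbred mouse strain MRL/MpJ were compared with those of LG/J, the strain from which most of the MRL genome descends. The comparison uses the 2 arrays titled MRL and the 2 arrays titled LG, which are 4 of the 81 arrays of a survey of 40 strain groups. Every array in both groups came from male mice aged 6 weeks, and no allele or agent beyond the strain background is named for either group. Cells were sorted from bone marrow as CD11b+ Ly6G+, the surface phenotype of neutrophils, from pools of 2 to 3 mice, and the submitters describe the 2 arrays of a strain as biological replicates. The labels do not mention the Fas lpr mutation that some MRL substrains carry. Total RNA was hybridised to a whole-transcript Affymetrix array, and 24922 probe sets were analysed, which gave 19752 genes with 1 symbol each. Values are log2 intensities, so a difference of 1 is 2-fold. With 2 pools per strain, the number of arrays limits the precision of every value.

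MRL was bred from LG/J by crosses that also brought in smaller and unequal parts of AKR, C3H and C57BL/6 stock. It is known for lupus-like autoimmunity and for unusual healing of ear wounds. A stretch of the genome where MRL and LG/J differ is therefore likely to carry the allele of one of those 3 other founders. The survey holds AKR/J, C3H/HeJ and C57BL/6J, which are called the founders here, although the substrain used in the crosses can differ. Neutrophils arise in the marrow from dividing promyelocytes and myelocytes and stop dividing as they mature. Primary granule proteins are made before secondary and tertiary ones, so a sort on Ly6G can hold cells of several stages.

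Neutrophil markers were high on average in both strains, but 1 of them, Elane, lay under 7 in all 4 arrays. The 13 neutrophil marker genes averaged 12.30 and 12.33 in the MRL arrays against 12.30 and 12.30 in the LG arrays, and none of the 13 was called different, with differences from -0.15 to 0.24. Marker lists of other cells, except monocytes, averaged below the mean of all genes (7.06 in MRL and 7.02 in LG): B cell markers averaged 6.04 in MRL and 6.06 in LG, erythroid markers 6.39 and 6.24, T and NK cell markers 6.42 and 6.30, eosinophil markers 6.52 and 6.36, basophil and mast cell markers 5.43 and 5.45, and platelet markers 6.44 and 6.55. Monocyte markers averaged 7.62 and 7.43, above that mean, and 3 of the 11 lay under 7 in all 4 arrays. Low list means can hide brighter members, such as Kit (8.32 in MRL and 8.47 in LG) and Gp9 (8.09 and 8.10). Under 7 in all 4 arrays were 7 of the 8 basophil and mast cell markers and 2 of the 4 platelet markers. Among these lists 1 gene was called, Nkg7, a granule membrane protein of cytotoxic lymphocytes. Nkg7 read 7.15 and 8.27 in MRL against 6.53 and 6.66 in LG. Its call was lost without MRL replicate 2 (0.55, adjusted p = 0.231, limma), and its part in the other results was not tested. No gene of the 4 in the sex-linked list was called. The arrays of one strain correlated at 0.994 in both strains, and an MRL array with an LG array at 0.987 to 0.990.

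MRL and LG neutrophils differed in a small share of the array, and most of the larger differences were higher in MRL. In limma's moderated test across all arrays, 958 probe sets passed an adjusted p of 0.05, which is 3.84% of those tested. Of these, 702 were higher in MRL (2.82%) and 256 were lower (1.03%). A 2-fold difference as well was met by 265 probe sets (1.06%), 215 higher (0.863%) and 50 lower (0.201%). Counted by gene, 722 of 19752 passed (3.66%), 534 higher (2.7%) and 188 lower (0.952%), and 212 also differed 2-fold (1.07%). The higher share of all calls was 73.3% as deposited, 57.5% after quantile normalization and 59.7% after setting all arrays to a common median. Among the 2-fold calls that share was 81.1%, 78.2% and 77.1% in the same order. The count of all calls fell to 488 without MRL replicate 2, to 540 without LG replicate 1 and to 553 without LG replicate 2.

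**Figure D1:**
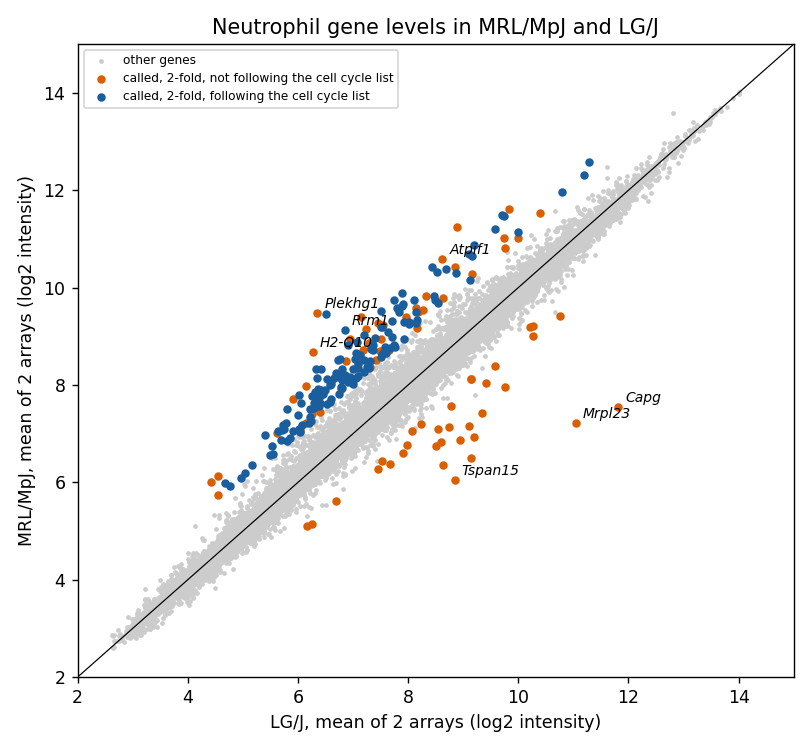
Mean log2 intensity of each gene in MRL/MpJ (vertical) against LG/J (horizontal), 2 arrays each; the line marks equal levels. The 136 blue genes are called, differ 2-fold and follow the cell cycle list over the other strains, and all lie above the line; the 76 orange genes do not follow it and lie on both sides, with Capg, Mrpl23 and Tspan15 far below.

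Set beside the other strains, MRL was not the closest to LG/J in its count of 2-fold calls, but it had few genes below LG/J. Of 35 other strains with 2 arrays, 11 had fewer 2-fold calls against LG/J than the 265 of MRL, from 186 in CBA/CaJ (0.746% of the probe sets) upwards, and the median was 340. The number with fewer calls was 6 after either rescaling of the arrays, 4 without MRL replicate 2 and 3 without LG replicate 1. The 50 lower calls of MRL were the fewest of these strains: the next lowest count was 93 and the median 159. Its 215 higher calls exceeded those of 22 strains, and the median was 154. All these comparisons share the 2 LG arrays, so their counts are not independent. Among the founders, AKR/J had 296 higher and 98 lower calls against LG/J (1.58% in all), C3H/HeJ had 341 and 109 (1.81%), and C57BL/6J, with 5 arrays, had 114 and 176 (1.16%).

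**Figure D2:**
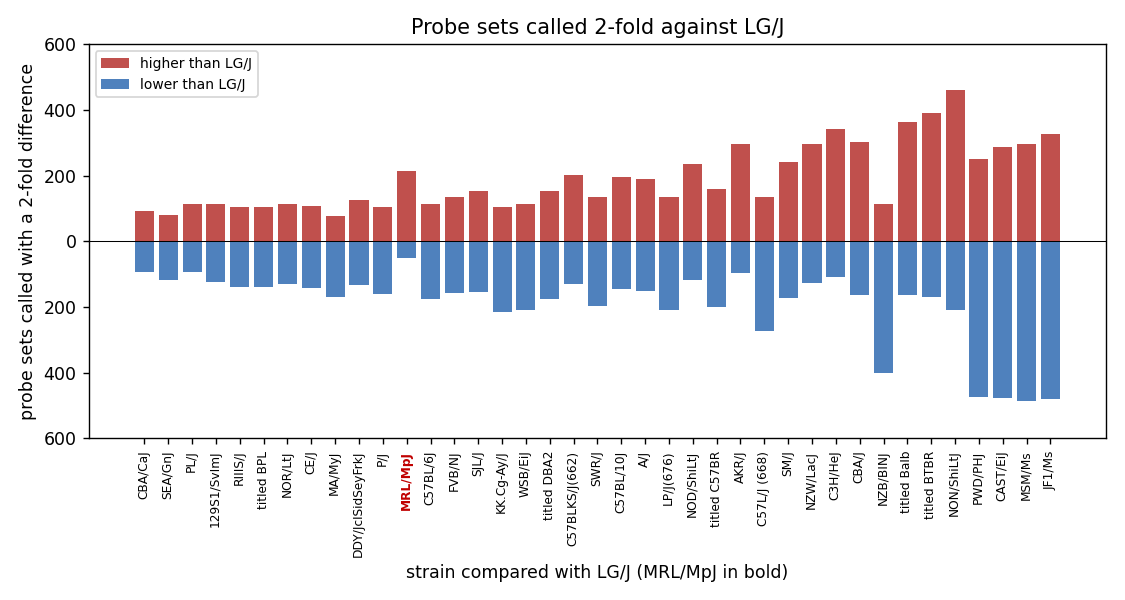
Number of probe sets called with a 2-fold difference from LG/J, for each strain group: bars above 0 count probe sets higher than LG/J and bars below 0 those lower. MRL/MpJ (bold) has 215 higher and 50 lower.

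Of all the gene lists, that of the cell division cycle had the most calls and the largest median difference. Of 27 genes in the cell cycle list, 25 were called higher in MRL and 21 of them by 2-fold or more, none was called lower, and the median difference was 1.34 against 0.03 over all genes. The 2 members that did not pass, picked out here after their values were seen, were the replicative helicase subunits Mcm4 (0.41, adjusted p = 0.301, limma) and Mcm6 (0.57, adjusted p = 0.253, limma). The list averaged 8.70 and 8.71 in the MRL arrays against 7.21 and 7.44 in the LG arrays. The promoters of the 4 members with the largest differences are shown because cell cycle genes share short promoter elements. Each is the 250 bases before the start of the gene in RefSeq, build GRCm38.p6, 5′ to 3′ on the gene's own strand: chr7:102441445-102441694 (plus) for Rrm1, chr19:37376132-37376381 (plus) for Kif11, chr2:127831860-127832109 (minus) for Bub1 and chr11:99024190-99024439 (minus) for Top2a. Capitals mark the CCAAT box (CCAAT, or ATTGG on the other strand), the cell cycle homology element (TTTGAA or TTCAAA) and the E2F-like sites TTTCCCGC and TTTGGCGC on either strand.
Rrm1: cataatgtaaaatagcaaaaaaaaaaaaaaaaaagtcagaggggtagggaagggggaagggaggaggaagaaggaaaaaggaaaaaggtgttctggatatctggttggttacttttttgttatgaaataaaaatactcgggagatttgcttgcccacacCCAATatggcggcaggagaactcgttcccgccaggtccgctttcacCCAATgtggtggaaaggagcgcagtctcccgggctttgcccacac
Kif11: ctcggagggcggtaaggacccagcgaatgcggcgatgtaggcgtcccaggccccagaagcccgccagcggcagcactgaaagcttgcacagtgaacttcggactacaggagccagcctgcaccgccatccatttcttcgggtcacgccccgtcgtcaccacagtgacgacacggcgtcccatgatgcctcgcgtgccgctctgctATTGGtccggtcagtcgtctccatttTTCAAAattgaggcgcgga
Bub1: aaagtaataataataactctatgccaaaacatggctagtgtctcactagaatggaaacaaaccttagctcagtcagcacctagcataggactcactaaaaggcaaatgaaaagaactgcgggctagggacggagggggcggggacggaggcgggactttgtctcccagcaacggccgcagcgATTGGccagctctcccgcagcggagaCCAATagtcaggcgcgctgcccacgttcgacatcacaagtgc
Top2a: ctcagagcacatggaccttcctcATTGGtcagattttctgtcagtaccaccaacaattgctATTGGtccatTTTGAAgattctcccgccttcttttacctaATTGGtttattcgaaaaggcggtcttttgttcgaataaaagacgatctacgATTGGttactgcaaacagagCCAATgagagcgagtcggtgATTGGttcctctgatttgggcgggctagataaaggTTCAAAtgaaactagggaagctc

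The CCAAT box occurred in 91.3% of the 23 promoter windows of the cell cycle list, in 62.3% of the 130 windows of the genes that were 2-fold higher and follow the list (their strain means correlate with it, as defined with the strain levels), and in 33.8% of all 32851 windows. TTTGAA occurred in 30.4%, 30.8% and 16.0% of the same windows, and the E2F-like sites in 3 of the 23 list windows, 5.38% and 1.3%. Members of the list were not removed from the genes that follow it, so these 2 sets of windows share promoters. Of the 72 windows of 2-fold genes that do not follow the list, 40.3% held CCAAT, 13.9% TTTGAA and 1.39% an E2F-like site. A match is a description of the sequence and not evidence that a factor binds there.

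Rrm1 encodes the large subunit of ribonucleotide reductase, which makes the building blocks of DNA. It read 9.23 and 9.02 in MRL and 6.79 and 6.92 in LG, a 4.84-fold difference (log2 2.28 ± 0.32 SE, adjusted p = 1.8e-06, limma). Its partner subunit Rrm2 read 8.84 and 8.82 against 6.95 and 6.86. Kif11, the kinesin that pushes spindle poles apart, read 9.59 and 9.47 in MRL and 7.27 and 7.75 in LG. The checkpoint kinase Bub1 read 8.46 and 8.19 against 5.98 and 6.69, and DNA topoisomerase Top2a read 9.91 and 9.57 against 7.58 and 7.92. In these 5 genes both MRL arrays lay above both LG arrays. This is not particular to them, since the arrays of the 2 strains overlapped in 0 of the 265 2-fold calls. The condensin subunit Smc2 (8.62 and 8.05 against 6.01 and 6.82) and the histone chaperone Asf1b (9.62 and 10.16 against 7.87 and 7.91) were higher by 3.78-fold and 3.99-fold. Cdkn2c, an inhibitor of the G1 kinases that is itself made in cycling cells, was higher by 2.83-fold. Fewer dividing cells in a pool and less RNA per cell cannot be told apart in such samples.

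The level of these genes varied widely over the survey. MRL, at 8.70, was exceeded by 6 of the other strains in the mean of the cell cycle list, and LG, at 7.33, by 27. AKR/J averaged 8.85 and C3H/HeJ 8.88, close to MRL, while C57BL/6J averaged 7.09 ± 0.34 (SD, n = 5), below LG. The lowest strain was NOR/LtJ at 6.72 and the highest NON/ShiLtJ at 9.30. A probe set was said to follow the list where its strain means correlated with the list mean at 0.7 or more over the 38 strains other than MRL and LG, a level chosen after the data were seen and used as a description with no test. By that measure 76.7% of the 215 2-fold higher probe sets and 0 of the 50 lower ones followed the list, against 2.58% of all probe sets. The list's own genes, 21 of them called 2-fold higher, were not removed from these counts. The rule counts only positive correlations and the list mean is higher in MRL, so a low count among the lower calls largely follows from the rule.

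**Figure D3:**
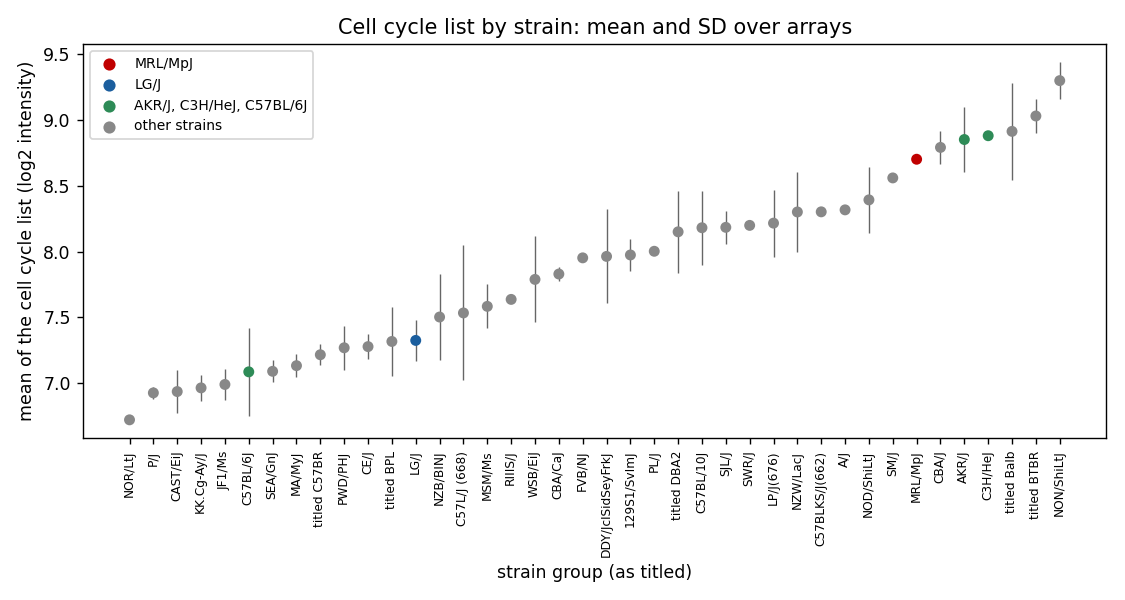
Mean log2 intensity of the 27 cell cycle genes in each of 40 strain groups, ordered by level, with the SD over the arrays of a group. MRL/MpJ (red, 8.70) lies beside AKR/J and C3H/HeJ (green, 8.85 and 8.88), LG/J (blue) lies at 7.33 and C57BL/6J at 7.09.

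Adjacent genes called together were looked for in gene order. All 4 runs of at least 3 adjacent genes called 2-fold were runs of histone genes: H2bc14, H2ac15 and H1f5; H2ac8, H2bc8 and H3c4; H2bc3, H2ac4 and H1f1; and H3c15, H4c14 and H2bc18. H2ac4, a core histone H2A gene, showed the largest difference of these at 8.84 and 10.07 in MRL and 6.42 and 6.60 in LG. The linker histone H1f5 read 10.17 and 10.68 against 8.24 and 8.63. H2bc3 read 11.25 and 11.72 against 9.71 and 9.71. Histone genes are near-identical copies, so probe sets of neighbours may read each other's transcripts, and the members of a run are not independent. No list of histone genes was fixed, so these 12 genes, picked by being called and adjacent, do not stand for the family. Without MRL replicate 2, H2ac4 lost its call (2.33, adjusted p = 0.0574, limma), as did H2ac8, H2bc14 and H4c14, so that each run lost a member, and H3c15 lost its call without MRL replicate 1 (adjusted p = 0.152, limma). With no minimum difference there were 8 runs, and 3 of them held no histone gene: H60b to Gm10825, Cdk4 to Os9 and Rnf166 to Piezo1.

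The azurophil and specific granule lists held 1 and 2 calls. Over all genes 3.66% were called, and 6.09% of those with a mean of at least 7. In the azurophil list 1 of 12 genes was called (8.33%), Ms4a3, a membrane protein of granulocyte progenitors, at 6.74 and 7.35 against 5.81 and 6.26. In the specific granule list 2 of 15 were called (13.3%): Chil3, a chitinase-like lectin (11.44 and 11.64 against 10.19 and 10.60), and the acute phase protein Orm1 (10.50 and 11.14 against 9.79 and 9.74). The cathelicidin Camp and Olfm4 of that list were not called (0.24, adjusted p = 0.266, and 0.31, adjusted p = 0.198, limma). Of 15 transcription factors of granulopoiesis, 3 were called higher: Gfi1 (0.53), Myb (0.42) and Junb (0.91). No gene was called among 17 gelatinase granule and matrix enzyme genes, 16 mature neutrophil genes or 6 NADPH oxidase genes. Of these calls, Chil3 and Junb held in every setting run. Ms4a3 was lost without LG replicate 1 (adjusted p = 0.18, limma) and without MRL replicate 2 (0.70, adjusted p = 0.345, limma). Orm1 was lost in 3 of the 4 fits that leave out 1 array and Gfi1 in 2, and Myb in all 4 and under 4 other settings.

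Among the genes lower in MRL, Capg had the largest difference. Capg, an actin filament capping protein, read 7.37 and 7.74 in MRL and 11.70 and 11.93 in LG, 19.2-fold lower in MRL (log2 -4.26 ± 0.19 SE, adjusted p = 2e-23, limma). AKR/J read 7.27, like MRL, while C3H/HeJ and C57BL/6J read 11.69 and 11.43, like LG. Mrpl23, a mitochondrial ribosomal protein, was 14.2-fold lower (6.996 and 7.44 against 10.99 and 11.11). Again AKR/J was low at 7.23, with C3H/HeJ at 10.80 and C57BL/6J at 10.92. The median of the other 38 strains was 11.35 for Capg, near LG, but 7.20 for Mrpl23, near MRL. Dnah6, a dynein heavy chain gene close to Capg in gene order, read 6.89 and 6.84 against 8.90 and 8.99, with AKR/J at 6.15 and C3H/HeJ at 8.82. The array was designed on the C57BL/6J sequence, so a variant under a probe can lower a reading, and the part of such variants in these differences was not tested.

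Other genes low in MRL had other patterns over the founders. The adaptor Grap read 6.83 and 7.04 in MRL and 9.20 and 9.19 in LG, with C3H/HeJ at 6.93, C57BL/6J at 7.05 and AKR/J at 9.19. Abca3, a lipid transporter, read 7.93 and 7.97 against 9.70 and 9.80, with C3H/HeJ at 7.99 and AKR/J at 9.48. The helicase Dhx40 (7.34 and 6.97 against 8.90 and 9.33) was low in both AKR/J at 7.03 and C3H/HeJ at 6.90, and high in C57BL/6J at 9.08. The kinase Stk39 (7.498 and 7.35 against 9.18 and 9.50) was low in AKR/J at 7.36 and C57BL/6J at 7.38. The cytochrome Cyp4f16 read 6.43 and 6.58 in MRL, and 6.48, 6.29 and 6.38 in AKR/J, C3H/HeJ and C57BL/6J. LG was the highest of all 40 strain groups for it, at 9.15 and 9.14. Tspan15, a tetraspanin, read 6.08 and 6.00 in MRL against 8.70 and 8.99 in LG. MRL was the lowest of the 40 for it, but AKR/J at 6.12, C3H/HeJ at 6.21 and C57BL/6J at 6.33 lay close. The median of the other 38 strains was 6.37, and 5 strains exceeded LG.

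Among genes higher in MRL, Plekhg1, a guanine nucleotide exchange factor, read 9.43 and 9.53 against 6.26 and 6.45 in LG (8.73-fold, adjusted p = 1.3e-19, limma). AKR/J read 7.07 while C3H/HeJ and C57BL/6J read 9.71 and 9.78. H2-Q10, a class I histocompatibility gene, read 8.73 and 8.64 against 6.19 and 6.36, and the 3 other founders read between 8.87 and 8.96; related class I genes may share probes. Atpif1, the inhibitor of the mitochondrial ATP synthase, read 10.40 and 10.78 against 8.63 and 8.62, and LG was the lowest of the 40 groups. Cmc2 (4.78-fold), the apelin receptor Aplnr (3.99-fold) and Snord118 (11.91 and 10.59 against 8.95 and 8.83), a small nucleolar RNA whose MRL arrays differed from each other by more than 1, were also among the largest. The Snord118 call was lost on leaving out any array but MRL replicate 2.

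**Figure D4:**
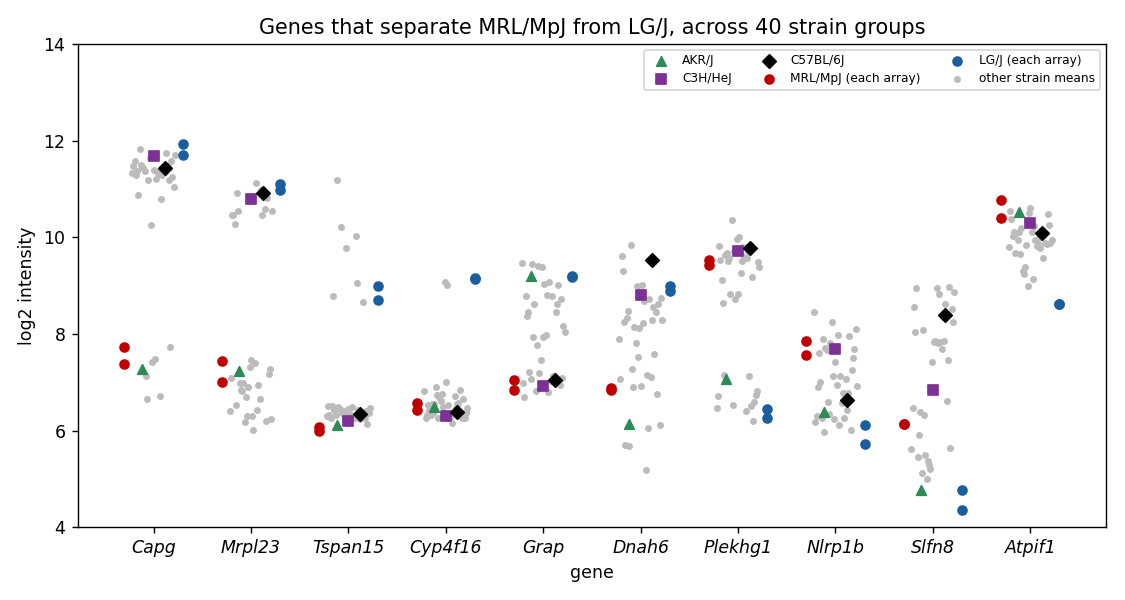
Log2 intensity of 10 genes in every strain group. Red and blue points are the single MRL/MpJ and LG/J arrays, green, purple and black are the means of AKR/J, C3H/HeJ and C57BL/6J, and grey points the other strain means. For Capg and Mrpl23 MRL lies with AKR/J, for Nlrp1b with C3H/HeJ, and for Plekhg1 and Grap with both C3H/HeJ and C57BL/6J.

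Over all 2-fold probe sets, the founder levels lay on the side of MRL more often in AKR/J and C3H/HeJ than in C57BL/6J. AKR/J was nearer to MRL than to LG in 90.6% of the 265 (95% Wilson interval 86.4 to 93.5), the highest share of the 38 strains, C3H/HeJ in 90.2% (86.0 to 93.2) and C57BL/6J in 18.5% (14.3 to 23.6). Strains outside this pedigree came close: NON/ShiLtJ was nearer to MRL in 89.8% and the group titled BTBR in 88.3%, both inside the intervals of AKR/J and C3H/HeJ. These intervals count probe sets, which are not independent. AKR/J, C3H/HeJ and NON/ShiLtJ are also high in the cell cycle list. In the 100 probe sets that do not follow that list the shares were 75%, 76% and 49%, beside 73% for NON/ShiLtJ and 71% for FVB/NJ. In the 50 lower calls alone FVB/NJ (80%) and LP/J (78%) exceeded AKR/J (76%) and C3H/HeJ (74%). In the 20 probe sets that differ 4-fold the founders' shares were 70%, 70% and 55%, while NON/ShiLtJ had the highest at 90%, SWR/J had 70% and 8 other strain groups had 65%. Nearness to MRL was thus not particular to the founders.

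The 76 genes with a 2-fold call that do not follow the cell cycle list were sorted by which founders lay within 0.5 of MRL. AKR/J alone was near for 12, C3H/HeJ alone for 7 and C57BL/6J alone for 1. AKR/J and C3H/HeJ together were near for 15, all 3 founders for 18, C3H/HeJ with C57BL/6J for 8, AKR/J with C57BL/6J for 2, and none of the 3 for 13. Such nearness was not particular to the founders. Of the 100 probe sets of this kind, 62% lay within 0.5 of MRL in AKR/J, 64% in C3H/HeJ and 36% in C57BL/6J. The other strains ranged from 26% in NZB/BINJ to 60% in CBA/J and the group titled BTBR. In the order of 19732 measured genes, 27 of the 76 genes fell into 13 groups whose members lay at most 10 measured genes apart. How many groups other sets of 76 genes would form was not tested. Histone genes made up some groups: H2ac8, H2bc8 and H3c4, and H3c15 with H2bc18, whose probe sets may read each other's transcripts. Besides Capg with Dnah6, the groups also included Nlrp1a with Nlrp1b, Mrpl35 with Polr1a, Ppt2 with Fkbpl and Zfp983 with Zfp760. Cfdp1 with Tmem170, Galns with Trappc2l and the olfactory receptor genes Olfr372 and Olfr373 were further groups. Several of these names fall outside the rule for named genes and were chosen after their values were seen.

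In 143 of the 265 probe sets (54%) MRL lay farther than LG from the median of the other 38 strains. For the 50 lower calls it was 12, so LG was the strain standing apart in 38, and for the 100 probe sets that do not follow the cell cycle list it was 37. MRL was the lowest group for Ezh1, a histone methyltransferase of the Polycomb complex (9.19 and 9.22 against 10.26 and 10.28), and LG the highest. For the receptor gene Gpr141b MRL was the lowest at 6.36, close to the next strain at 6.41. The median of the other 38 strains was 6.89 there, and LG read 8.63. LG was the lowest for the autophagy enzyme Atg7 (9.94 and 10.05 against 10.96 and 11.09 in MRL), the phosphatase Dusp5, Mrpl35 and Slfn8. It was the highest for the glutamate receptor Grm4, the calcium channel Ryr2, Zfp760 and 1700010I14Rik. Slfn8, of the Schlafen family, read 6.13 and 6.13 in MRL and 4.76 and 4.35 in LG, with AKR/J at 4.78 and C57BL/6J at 8.40.

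In the inflammasome list 3 of 15 genes were called (20%), 1 higher and 2 lower in MRL. Over all genes the share called was 3.66%, and 6.09% among those with a mean of at least 7. Nlrp1b, the sensor of anthrax lethal factor, read 7.85 and 7.57 in MRL against 6.11 and 5.71 in LG, where it was the lowest of the 40 groups, and C3H/HeJ read 7.69 with AKR/J at 6.38. Its neighbour Nlrp1a went the other way, 5.04 and 5.17 against 6.34 and 6.00, with C57BL/6J at 7.35; the paralogs are similar in sequence. The sensor Nlrp3 was lower by a difference of -0.69. Of 19 pattern recognition genes, 1 was called (5.26%), Tlr8, the endosomal receptor of single-stranded RNA (-0.62), and the median of the list was -0.16. Ly96, the partner of the lipopolysaccharide receptor, differed by -0.73 without passing (adjusted p = 0.0788, limma). The calls of Nlrp1a, Nlrp3 and Tlr8 were each lost on leaving out at least 2 of the 4 arrays in turn.

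The interferon-stimulated list leaned upwards with few calls. In MRL 26 of its 28 genes had the higher mean, against 11191 of all 19752 genes. Of the 28, 2 were called (7.14%), beside 3.66% of all genes and 6.09% of those with a mean of at least 7. These were Rsad2 (9.72 and 9.66 against 8.88 and 8.65) and Oasl1, named here after its values were seen (9.47 and 10.13 against 9.06 and 9.12). The list median was 0.29. Rtp4 differed by 0.94 without passing (adjusted p = 0.0663, limma). Of 20 immediate early and stress genes 18 had the higher mean in MRL and 2 were called (10%), Jun and Junb, subunits of the AP-1 transcription factor. Jun read 9.34 and 8.94 against 7.21 and 7.25, and MRL was the highest of the 40 groups. Fos differed by 1.24 but was not called (adjusted p = 0.128, limma), its MRL arrays reading 8.60 and 7.98. With a common array median neither interferon-stimulated call passed (Rsad2 adjusted p = 0.0952, Oasl1 adjusted p = 0.0739, limma). Rsad2 was called in none of the 4 fits that leave out 1 array, and Oasl1 was lost in 3 of them (0.38, adjusted p = 0.768, without MRL replicate 2, limma).

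**Figure D5:**
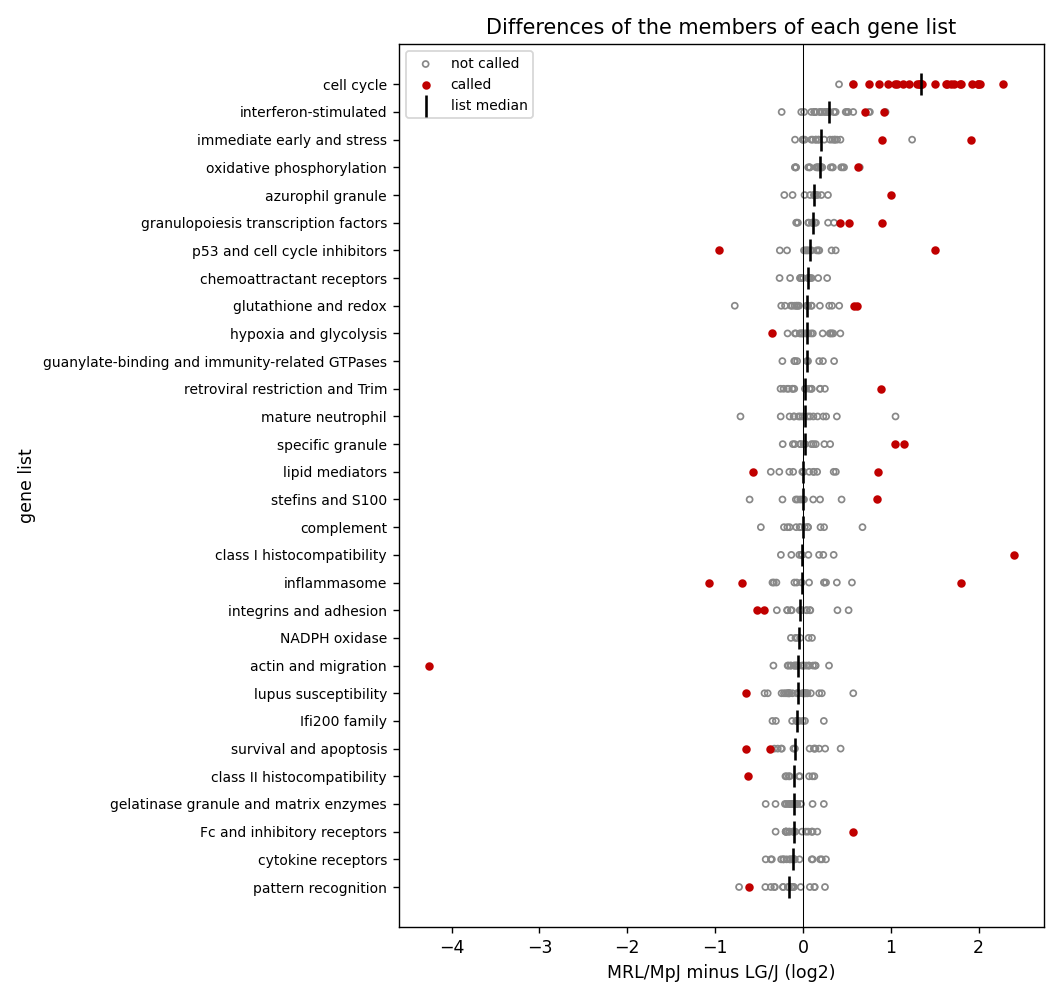
Difference MRL/MpJ minus LG/J (log2) for each measured member of the 30 gene lists; red points are called at an adjusted p under 0.05, open points are not, and the black bar is the median of the list. The cell cycle list (median 1.34) stands to the right, while the medians of the other lists lie between -0.16 and 0.29.

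Of 26 lupus susceptibility genes 1 was called (3.85%, beside 3.66% of all genes and 6.09% of those with a mean of at least 7). This was Fas, the death receptor (8.67 and 8.29 in MRL against 8.98 and 9.26 in LG, -0.64). In the survival list Fas and Birc3 (-0.38) were the 2 calls of 15 (13.3%). Fas was lost without LG replicate 2 or MRL replicate 2, and Birc3 without any 1 of the 4 arrays. Cd84, a receptor of the SLAM family, differed by -0.40 (adjusted p = 0.0563, limma). Class II histocompatibility gave 1 call of 10, H2-DMa (-0.63), which was lost without LG replicate 2 or MRL replicate 1. Perp, a p53 target at cell junctions, was lower (-0.96, adjusted p = 0.00103, limma). The adhesion list gave 2 calls of 16 (12.5%), Itgb1 (-0.52) and Itgb2l (-0.44), and both were lost under 3 other settings and on leaving out any 1 array.

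Every call in the remaining lists was lost under at least 1 setting. Over all genes 3.66% were called, or 6.09% of those with a mean of at least 7, and 56.7% had the higher mean in MRL. Of 23 oxidative phosphorylation genes, 19 had the higher mean in MRL (82.6%) and 1 was called (4.35%), the complex I subunit Ndufb3 (0.63). That list averaged 9.29 and 9.56 in the MRL arrays against 9.09 and 9.33 in the LG arrays, so the arrays of the 2 strains overlapped. The redox list gave Gpx3 (0.59) and Sod2 (0.61), the mitochondrial superoxide dismutase, of 23 genes (8.7%). The lipid mediator list gave Alox15 higher (0.85) and Tbxas1 lower (-0.56) of 15 (13.3%). The mitophagy receptor Bnip3l (-0.36) was the 1 call of 20 hypoxia and glycolysis genes (5%). The retroviral restriction gene Fv1 (0.89) was the 1 call of 16 (6.25%), and S100a1 (0.85) the 1 of 11 stefins and S100 proteins (9.09%). The receptor gene Lilra6 (0.57) was the 1 call of 20 in the list of Fc and inhibitory receptors (5%). Lilra6 read 8.39 and 7.96 in MRL and 7.33 and 7.87 in LG, where the 3 other founders read between 11.83 and 11.98. Ndufb3, Sod2, Tbxas1 and Bnip3l were called in none of the 4 fits that leave out 1 array, Fv1 and Gpx3 were lost in 3 of them, and Alox15, S100a1 and Lilra6 in 2. Ndufb3, Fv1 and Lilra6 were also lost after quantile normalization and with a common median, and Sod2 with a common median. Bnip3l was lost with the 4 arrays alone. Lilra6 was lost there too, with the replicate block (adjusted p = 0.052, limma) and without the groups of conflicting labels. No gene was called among 21 cytokine receptors, 13 chemoattractant receptors or 14 complement genes.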

How the data were processed

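Bone marrow neutrophils of 40 strain groups were measured on 81 Affymetrix whole-transcript arrays. The authors deposited linear intensity values, and per the submitters' processing notes Affymetrix Power Tools and RMA were used; no version and no genome build is named in those notes. The intensities were taken as log2 with no further scaling or floor. A model with a term for each of the 40 groups was fitted to all 24922 probe sets with limma 3.58.1 in R 4.3.3 (41 residual degrees of freedom), so that all groups share one estimate of the spread, and p-values were adjusted by Benjamini-Hochberg over all probe sets. The threshold was 0.05. Of the probe sets, 21425 had 1 symbol in the platform annotation, 1399 several and 2098 none; symbols were updated through RefSeq (19677 of 19752 genes matched), and a gene was read from its brightest probe set over all arrays. Named genes are the 15 largest higher and the 15 largest lower, up to 4 per list, up to 5 per panel extreme and runs of neighbours, with exceptions stated. The members, lists and tests were chosen with earlier results of these data known. The 39 lists hold 651 entries, of which 574 were measured. For 5 groups the title and strain label disagree, and those groups are called by their title. Gene order came from RefSeq, and no coordinates of it are printed except for promoters. The model was tested on simulated data. Alternatives were other scalings, other variance priors, a filter on dim probe sets, a replicate block, the 4 arrays alone and the omission of single arrays or groups.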

Additional observations from a re-analysis of the deposited data

How the results depend on the processing

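Over the settings run, the number of probe sets called stayed within 1.5 times of 958 except when single arrays were left out, where it ranged from 488 to 703 and the lone array of a strain was assumed to vary like the other groups. The 2-fold calls ranged from 219 to 296 and the called cell cycle genes from 21 to 24 in the same fits. The called list members, 57 as deposited, ranged from 32 to 40. The share of calls that were higher in MRL was 57.5% after quantile normalization, 59.7% with a common median, 69.8% once dim probe sets (mean under 7) were dropped, 68.8% from the 4 arrays alone, and 70.2% to 85.4% without single arrays. Among 2-fold calls it was 75.6% from the 4 arrays alone and 74.0% to 87.1% without single arrays. Strains with fewer 2-fold calls against LG/J than MRL, 11 as deposited, numbered 6 after quantile normalization, 6 with a common median and 3 to 12 without single arrays. In the probe sets that differ 4-fold, the shares nearer MRL were 70% for AKR/J, 70% for C3H/HeJ and 55% for C57BL/6J, and MRL was farther from the panel in 40%. In the probe sets that do not follow the cell cycle list, an alternative chosen after seeing the data, these were 75%, 76%, 49% and 37%. With a correlation of at least 0.5, also chosen then, 180 in place of 165 higher probe sets followed the list. Runs of neighbours numbered 8 with no minimum difference. The cause of these shifts was not tested.

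With the replicate number as a block, 939 probe sets were called and 266 by 2-fold. The labels do not say that a number pairs the strains. Same-numbered arrays deviated with a correlation of -0.154, and with the numbers crossed, an alternative chosen after seeing the data, 940 were called.

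The alternatives were also run for all 201 genes that the rule names, together with the genes named outside it, 214 in all. Of these, 20 changed sign under at least 1 setting, none of them called as deposited, and 0 of the 88 called genes did. Of the 88, 34 lost their call when at least 1 single array was left out, and 13 under some other setting.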
